A study of Homo sapiens with 12 samples.

Results

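CC chemokine ligands are small secreted proteins that attract leukocytes and share a pair of adjacent cysteines near the start of the mature chain. The 10 described here, CCL2, CCL3, CCL3L3, CCL4, CCL4L1, CCL5, CCL7, CCL8, CCL20 and CCL22, were taken by name from the 3281 genes that the authors listed as changed by lipopolysaccharide (LPS) in at least 1 of 2 genotypes. All 10 stood in the wild-type list and 9 in the S80A list, from which CCL7 was absent. RNA-seq was made from the THP-1 line, grown from a human monocytic leukaemia, after the cells had been given the phorbol ester PMA at 25 ng/ml for 72 hr and then 4 days without it, which turns them into macrophage-like cells. The cells carried wild-type NFKB1 (WT) or NFKB1 with alanine in place of serine 80 (S80A), and RNA was taken before LPS (0 hr) or after 3 hr with LPS at 10 ng/ml, with 3 libraries in each of the 4 groups. The labels do not say whether the S80A cells are a single clone, so the effect of the edit and other differences between the cell lines cannot be told apart. Separate cultures are not stated for the replicates either, and the p-values below then measure only a spread between libraries that may be technical.

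In macrophages, LPS is sensed by the receptor TLR4, which switches on NF-κB and, through a second branch, interferon regulatory factors. NFKB1 encodes the p105 precursor of p50, a DNA-binding subunit of NF-κB. Many CC ligand genes are targets of these factors, and their products act on G-protein-coupled receptors, for example CCL2, CCL7 and CCL8 on CCR2, CCL20 on CCR6, and CCL22 on CCR4. The ligands therefore differ in the cells they call in, from monocytes (CCL2) to memory and regulatory T cells (CCL22) and cells that bear CCR6 (CCL20).

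RefSeq sequences of the 250 bases before the start site (build GRCh38.p14) matched 6 of the 10 ligands, namely CCL3, CCL3L3, CCL7, CCL8, CCL20 and CCL22. Both strands were searched for the NF-κB (kB) consensus, the AP-1 motif TGANTCA, the interferon-stimulated response element (GAAA, any 2 bases, GAAA) and the TATA box TATAAA. The 3 promoters below, of CCL20, CCL22 and CCL7, are those with a kB or AP-1 match, and capitals mark the matches. CCL3, CCL3L3 and CCL8 had neither, though CCL8 differed between genotypes after LPS. A link between motifs and genotype differences was not tested. They are CCL20 at chr2:227813592-227813841, CCL22 at chr16:57358533-57358782 and CCL7 at chr17:34269971-34270220, all on the plus strand and written 5′ to 3′.
CCL20: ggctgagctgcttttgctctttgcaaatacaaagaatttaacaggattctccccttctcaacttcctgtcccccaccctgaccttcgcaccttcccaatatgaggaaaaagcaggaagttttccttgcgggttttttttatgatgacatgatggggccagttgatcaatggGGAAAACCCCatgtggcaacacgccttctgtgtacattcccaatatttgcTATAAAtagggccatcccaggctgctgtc
CCL22: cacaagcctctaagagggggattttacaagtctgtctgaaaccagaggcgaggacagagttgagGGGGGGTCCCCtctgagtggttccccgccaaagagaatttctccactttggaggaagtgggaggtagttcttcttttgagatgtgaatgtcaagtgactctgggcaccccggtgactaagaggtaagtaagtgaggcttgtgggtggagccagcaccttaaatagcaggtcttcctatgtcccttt
CCL7: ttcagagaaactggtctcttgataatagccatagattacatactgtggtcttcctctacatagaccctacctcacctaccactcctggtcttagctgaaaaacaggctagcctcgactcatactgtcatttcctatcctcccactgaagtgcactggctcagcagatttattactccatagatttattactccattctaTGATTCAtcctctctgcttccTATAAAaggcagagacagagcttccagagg
The kB consensus matched in CCL20 (79 to 70 bases upstream, minus strand) and in CCL22, where 2 overlapping matches on both strands cover 186 to 176 bases upstream. It occurs in 9.60% of the 27326 RefSeq promoters of the same length. CCL7 holds an AP-1 motif 51 to 45 bases upstream, a motif found in 6.57% of promoters. A TATA box lies 29 to 24 bases upstream in CCL20, CCL3 and CCL3L3 and 30 to 25 upstream in CCL7 and CCL8, against 11.2% of all promoters. The interferon-stimulated response element, present in 3.07% of promoters, was in none of the 6 windows. A match is a run of letters and not a measured binding site.

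Expression is given as scaled reads, in which the reads of a gene are divided by the size factor of their library. Reads on the 3281 listed genes ranged from 1924562 to 5789918 per library, and these totals leave out all other genes. Over all listed genes S80A replicate 1 stood apart from the other S80A libraries. Its root mean square log2 distance to the WT mean was 1.01 at 0 hr and 1.26 at 3 hr, against 1.29 and 1.41 for replicates 2 and 3 at 0 hr and 1.52 and 1.60 at 3 hr. Single ligands did not all follow this order, and results that turn on this library are given with and without it. Since it lay nearest to WT over all listed genes, leaving it out favours larger genotype differences. Calls gained only without it are no independent support for a difference. Of 16 monocyte and macrophage markers 3 were among the listed genes (CD14, CD163 and FCGR3A), with summed levels of 3735 to 5699.8 scaled reads in WT and 3326 to 7372 in S80A cells at 0 hr. At 3 hr the sums were 1716 to 2482 in WT and 2058 to 2569.6 in S80A cells. Such sums hide single markers. The median S80A minus WT difference of the 3 was -1.11 log2 at 0 hr and -0.004 at 3 hr, and 0 of them passed the limma test at either time. All 3 fell with LPS in the authors' deposited table for WT cells, and 1 in that for S80A cells. Of 20 markers of other cell types only CD79B was listed, at 4.70 to 45.8 scaled reads, and the other markers were not measured here. NFKB1 itself did not pass the test between genotypes (log2 difference after LPS -0.02, limma adjusted p = 0.936), and a point edit leaves no mark in a read count, so this gives no check of the genotype labels.

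LPS raised the CC ligands from a trace to a sizeable part of the reads on the listed genes, and their share of all RNA is not known. Together they held 0.0249% to 0.0739% of the scaled reads of listed genes at 0 hr, 3.44% to 3.97% in WT cells at 3 hr and 3.00% to 3.90% in S80A cells at 3 hr. In the authors' deposited table for WT cells all 10 rose, where 8.24% of 17486 tested genes rose, and in the authors' deposited table for S80A cells 9 rose, where 8.67% did. These rises are how genes came to be listed, so they are a description. In bulk RNA fewer expressing cells and less RNA per cell cannot be told apart.

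**Figure D1:**
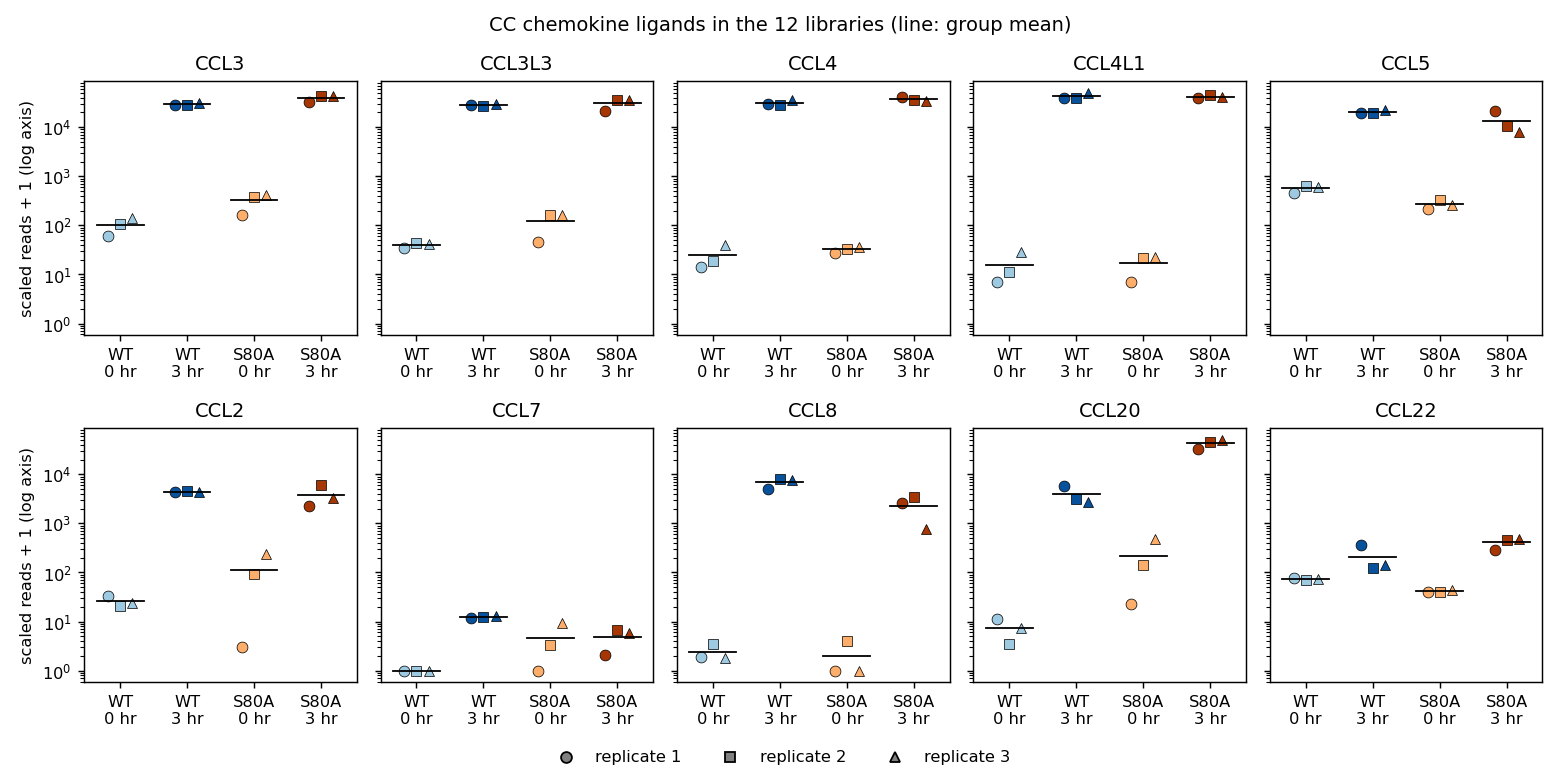
Level of each CC ligand in the 12 libraries. The vertical log axis is scaled reads + 1, the horizontal axis gives genotype and time, symbols mark replicates 1 to 3 and the line is the group mean. CCL20 in S80A cells at 3 hr (33148 to 50683 scaled reads) lies above WT cells at 3 hr (2781 to 5685), CCL8 shows the opposite order, and the CCL4 and CCL4L1 values of the genotypes overlap.

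Genotypes were compared at each time with limma on log2(scaled reads + 1) over all 3281 genes, 3 libraries against 3, with Benjamini-Hochberg adjusted p under 0.05 as the threshold. After LPS 3 of the 10 ligands passed, beside 47.0% of all listed genes. CCL20 was higher in S80A cells (29.2% of listed genes were) and CCL7 and CCL8 were lower (17.7%). CCL7 was listed for WT cells alone, which favours a lower S80A level after LPS. Before LPS 2 passed, CCL5 and CCL22, both lower in S80A cells, beside 30.7% of listed genes in either direction, 20.1% higher and 10.6% lower. In either direction 3 or 2 of 10 is a smaller share than these backgrounds. Of the lower calls alone, 2 of 10 is a larger share than the background at both times, on 2 genes, and after LPS CCL7 is 1 of them. The backgrounds hold 773 genes listed for WT cells alone and 946 for S80A cells alone, which were selected for a difference. Of the 10 ligands 9 were listed for both genotypes, so the shares are of unlike sets. The results below concern single ligands and not the family. The median difference over the ligands was 0.03 log2 after LPS and 0.61 before it, against 0.19 for all listed genes at both times.

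The direction of small differences depended on the scaling. With the deposited size factors 959 genes were higher and 582 lower in S80A cells after LPS (62.2% of calls higher). TMM scaling gave 797 and 756 (51.3% higher) with a median of -0.01 log2, and DESeq2 gave 875 and 788 (52.6%) with a median of 0.01. Before LPS the split was 660 higher and 347 lower (65.5% higher), against 458 and 506 under TMM (47.5%) and 611 and 562 under DESeq2 (52.1%). TMM and DESeq2 took their factors from the listed genes alone, which were chosen for a change with LPS. A median near 0 and a near-even split follow from that, and do not show which scaling is right. With the deposited size factors edgeR gave 1014 higher and 568 lower after LPS (median 0.22 log2). Before LPS it gave 758 and 359 (median 0.23 log2). A ligand at 0.19 log2 with the deposited scaling stands at the middle of the listed genes in the limma fit.

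**Figure D2:**
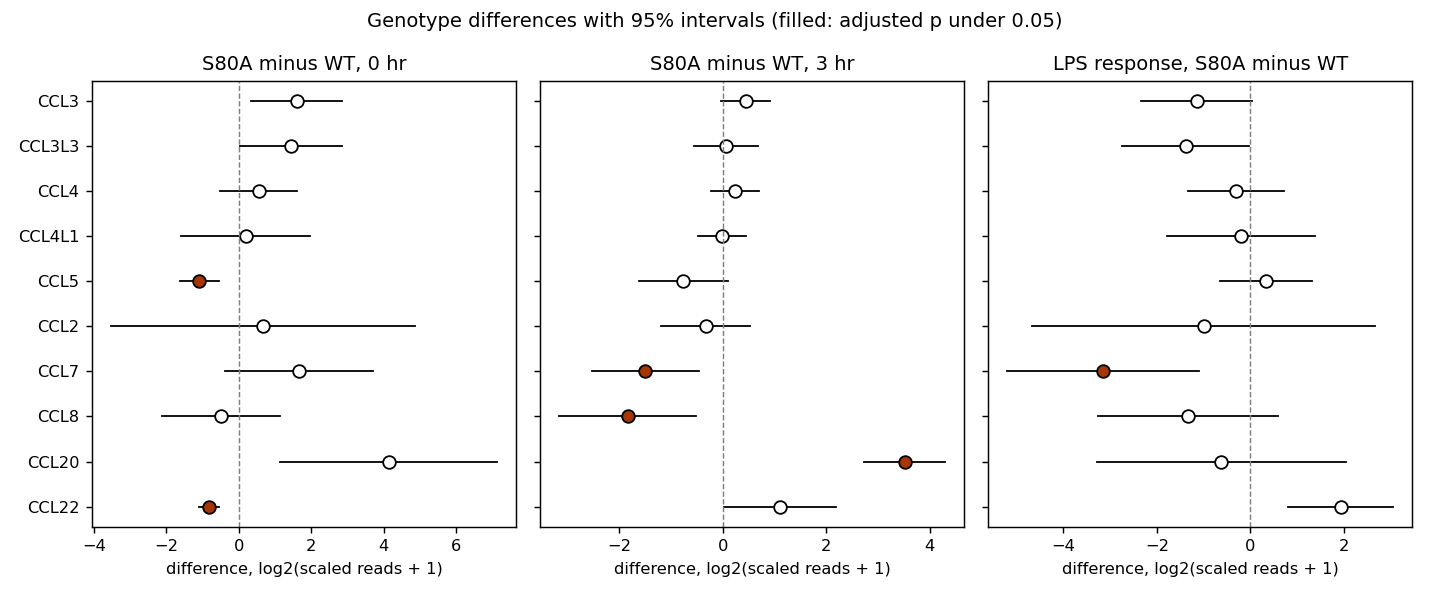
S80A minus WT difference of each ligand at 0 hr (left) and 3 hr (middle), and the difference of the LPS response (right), in log2(scaled reads + 1). Bars are 95% limma intervals and filled points have an adjusted p under 0.05. CCL20 has the highest difference at both times (4.14 and 3.52), and CCL22 is at -0.83 before LPS and 1.10 after it.

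CCL3 and CCL4, which attract monocytes and T cells, and their copies CCL3L3 and CCL4L1 held most of the CC ligand reads after LPS. CCL3 stood at 60.6, 108 and 139.6 scaled reads in WT and 158, 385 and 423 in S80A cells at 0 hr (replicates 1 to 3 in this order, here and below). At 3 hr it stood at 27950.2, 28448 and 30797 in WT and 33341, 42648 and 43646 in S80A cells. All S80A libraries lay above all WT libraries at both times. The difference was 1.60 ± 0.50 log2 before LPS (SE, limma adjusted p = 0.0626, range 0.00199 to 0.173 over 14 alternatives) and 0.45 ± 0.20 after it (adjusted p = 0.107, range 0.0263 to 0.370), and neither passed. The CCL3 difference before LPS passed in the fit that blocks on replicate number (adjusted p = 0.0172). Without S80A replicate 1 it passed at both times (adjusted p = 0.0206 before and 0.0263 after LPS).

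CCL3L3 is a near-identical copy of CCL3 on the same chromosome. It stood at 32.9, 42.6 and 40.3 scaled reads in WT and 43.8, 165 and 164 in S80A cells at 0 hr. After LPS it reached 28465, 27481 and 30349 in WT and 21078, 35373 and 36229.6 in S80A cells, where replicate 1 lay below every WT library and the other two above. All S80A libraries were above the WT ones at 0 hr, but the difference of 1.44 ± 0.56 log2 did not pass (adjusted p = 0.107), while it did without S80A replicate 1 at 0 hr (2.07 log2, adjusted p = 0.00253, the lowest of 14 alternatives, which reached 0.256). After LPS the difference was 0.06 log2 (95% interval -0.56 to 0.69, adjusted p = 0.860), and its sign turned under TMM (-0.14) and DESeq2 (-0.11).

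The 2 genes can be told apart by few bases. The spliced coding sequences below, from GENCODE release 29 transcripts on GRCh38, show where the coding bases differ. They are written 5′ to 3′ in the direction of transcription. CCL3 lies on the minus strand of chromosome 17 from 36088256 to 36090169 and CCL3L3 from 36194869 to 36196758. Capitals mark the bases that differ or are inserted.
CCL3: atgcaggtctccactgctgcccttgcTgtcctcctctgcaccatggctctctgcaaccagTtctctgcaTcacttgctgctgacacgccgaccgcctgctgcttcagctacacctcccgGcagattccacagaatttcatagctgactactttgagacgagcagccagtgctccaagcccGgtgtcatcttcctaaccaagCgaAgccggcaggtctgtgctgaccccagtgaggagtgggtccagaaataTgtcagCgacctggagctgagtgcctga
CCL3L3: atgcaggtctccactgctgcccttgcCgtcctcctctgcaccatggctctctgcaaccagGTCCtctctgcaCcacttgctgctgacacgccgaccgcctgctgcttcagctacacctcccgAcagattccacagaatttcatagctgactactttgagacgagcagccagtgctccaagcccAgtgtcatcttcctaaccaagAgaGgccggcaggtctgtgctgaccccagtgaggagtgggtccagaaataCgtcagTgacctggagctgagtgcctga
They have 279 and 282 coding bases with 9 mismatches and 3 inserted bases, an identity of 95.7%. Over the spliced protein-coding transcripts only 9 of 704 windows of 75 bases in CCL3, the read length in the labels, occur unchanged in CCL3L3 (1.28%). CCL4 shares 94 of 904 such windows (10.4%) with CCL4L2, the copy annotated in the primary assembly, where CCL4L1 has no place, so no position is given for CCL4L1. How the authors' counting treated reads that fit both copies is not given in the sources used here, and reads of THP-1 alleles that differ from the reference were not examined. Antisense genes overlap 1115 of 1494 exon bases of CCL3 and 342 of 1469 of CCL3L3, and the strand setting of the counting is not given in the sources used here either. Values of these 4 genes are uncertain to that extent.

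The share of the copies differed between times. The ratio of CCL3L3 to CCL3 was 0.543, 0.396 and 0.289 in WT cells at 0 hr and 1.02, 0.966 and 0.985 at 3 hr. In S80A cells it was 0.277, 0.429 and 0.387 at 0 hr and 0.632, 0.829 and 0.830 at 3 hr. Every 3 hr library thus had a higher ratio than every 0 hr library, and at 3 hr all S80A libraries lay below all WT ones. The ratio of CCL4L1 to CCL4 was 0.467, 0.591 and 0.694 in WT and 0.231, 0.619 and 0.618 in S80A cells at 0 hr, and 1.30, 1.36 and 1.39 in WT and 0.978, 1.24 and 1.22 in S80A cells at 3 hr. It showed the same order, with every 3 hr library above every 0 hr library and S80A libraries below WT ones at 3 hr. These ratios were not tested.

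**Figure D3:**
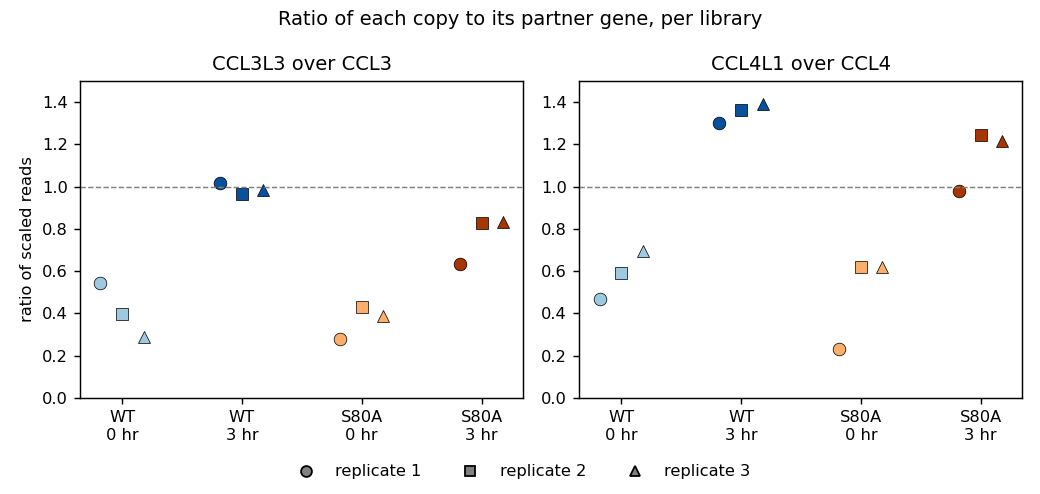
Ratio of scaled reads of CCL3L3 to CCL3 (left) and of CCL4L1 to CCL4 (right) in each library, by genotype and time. Symbols mark replicates and the dashed line a ratio of 1. Both ratios lie higher at 3 hr than at 0 hr in every library, and CCL3L3 over CCL3 reaches 0.966 to 1.02 in WT and 0.632 to 0.830 in S80A cells.

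CCL4 and CCL4L1 did not pass the test between genotypes at either time. CCL4 (chromosome 17, 36103590 to 36105621, plus strand) stood at 13.0, 17.7 and 39.5 scaled reads in WT and 25.9, 32.6 and 35.7 in S80A cells at 0 hr. It reached 29758, 28917 and 35082 in WT and 41062, 35895 and 33773 in S80A cells at 3 hr. CCL4L1 reached 38737, 39451 and 48878 in WT and 40140.5, 44635 and 41065 in S80A cells from 6.06 to 27.4 and 5.98 to 22.0 at 0 hr. The ranges overlapped at both times for both genes. After LPS the difference was 0.24 log2 for CCL4 (95% interval -0.22 to 0.70, limma adjusted p = 0.346) and -0.01 for CCL4L1 (-0.47 to 0.45, adjusted p = 0.978). Before LPS it was 0.55 for CCL4 (adjusted p = 0.360) and 0.19 for CCL4L1 (adjusted p = 0.860), and the latter turned to -0.03 under TMM and -0.08 under DESeq2. The authors' deposited tables give CCL4L1 rank 2 among the rises of both genotypes, with log2 fold changes of 11.02 in WT and 10.87 in S80A cells. They give CCL4 log2 fold changes of 10.14 and 9.98, CCL3 7.87 and 6.73, and CCL3L3 9.13 and 7.65.

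CCL5, which draws T cells, eosinophils and monocytes, was already present before LPS and was lower in S80A cells then. It lies on the minus strand of chromosome 17 from 35871491 to 35880793. At 0 hr it stood at 449, 634 and 618 scaled reads in WT and 217, 320.3 and 261 in S80A cells, with no overlap. The difference was -1.09 ± 0.22 log2 (SE, 3 libraries each, limma adjusted p = 0.0181, range 4.81e-07 to 0.0699 over 14 alternatives), a mean 2.13 times higher in WT than in S80A cells. The call was lost without WT replicate 2 (adjusted p = 0.0658) or WT replicate 3 (0.0699). At 3 hr CCL5 stood at 19851, 19313 and 22679 in WT and 20873, 10566 and 8138 in S80A cells. S80A replicate 1 lay among the WT libraries and the other two below them. The difference of -0.76 ± 0.36 log2 did not pass (adjusted p = 0.123, range 0.00524 to 0.311), and without S80A replicate 1 it was -1.15 (adjusted p = 0.00524). DESeq2 called it as well (-0.85 log2, adjusted p = 0.0416). Of its 75-base windows 7.94% occur in other annotated genes.

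CCL2, CCL7 and CCL8 lie in 1 cluster on the plus strand of chromosome 17 (CCL2 34255218 to 34257203, CCL7 34270221 to 34272242, CCL8 34319036 to 34321402) and encode the monocyte chemoattractant proteins. They differed in level and in their genotype contrast. CCL8 stood at 0.866, 2.41 and 0.807 scaled reads in WT and 0, 3.10 and 0 in S80A cells at 0 hr, near the floor of detection. At 3 hr it reached 5049, 8049 and 7566 in WT and 2606, 3368 and 772 in S80A cells. Every S80A library was below every WT library at 3 hr. Before LPS the difference did not pass (-0.50 log2, limma adjusted p = 0.582). After it the difference was -1.83 ± 0.55 log2 (SE, 95% interval -3.15 to -0.52, limma adjusted p = 0.0326, range 0.000405 to 0.0981 over 14 alternatives), with the WT mean 3.06 times the S80A mean. The call was lost without any 1 of the WT replicates 1, 2 or 3 (adjusted p = 0.0543, 0.0981 and 0.0959), and the difference was -1.19 without S80A replicate 3. Over the group CCL8 went from 5 whole reads to 19120 in WT cells, which is 5061 times more after scaling (exact 95% counting interval 2168 to 15588). In S80A cells it went from 4 to 5896 reads, 1844 times more (719.7 to 6769). Such intervals and floors cover counting error only.

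CCL7 was the least abundant ligand at 3 hr in both genotypes and the only one missing from the authors' S80A table. It stood at 0, 0 and 0 scaled reads in WT and 0, 2.33 and 8.40 in S80A cells at 0 hr. At 3 hr it stood at 10.6, 11.4 and 11.8 in WT and 1.12, 5.75 and 4.80 in S80A cells, with no overlap. In whole reads WT cells went from 0 to 31, at least 13.7-fold higher than the floor, set at 3 reads for a whole group. S80A cells went from 11 to 10 reads, a scaled ratio of 1.14 (counting interval 0.433 to 2.95). At 0 hr the S80A group was at least 4.11-fold higher than the WT group taken at that floor, and its 11 reads came from replicates 2 and 3. That difference did not pass (1.66 log2, limma adjusted p = 0.173, range 0.0205 to 0.311 over 13 alternatives, the lowest without S80A replicate 1). After LPS the difference was -1.49 ± 0.44 log2 (SE, limma adjusted p = 0.0298, range 0.00557 to 0.0860 over 13 alternatives). Because CCL7 was listed for WT cells alone, its listing favoured a lower S80A level at 3 hr. This p is therefore no independent support for a difference. The call was lost in edgeR (adjusted p = 0.05001) and DESeq2 (0.0506), in the fit of all 12 libraries (0.0801), and without any 1 of the WT replicates 1, 2 or 3 (0.0693, 0.0822 and 0.0860). Without S80A replicate 1 the difference was -0.97 log2 (adjusted p = 0.00557).

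CCL2, the main monocyte chemoattractant of the trio, varied widely among S80A libraries. It stood at 32.9, 19.3 and 22.6 scaled reads in WT and 1.99, 90.7 and 238 in S80A cells at 0 hr, so S80A replicate 1 lay below all WT libraries and replicates 2 and 3 above them. At 3 hr it stood at 4335, 4643 and 4363 in WT and 2257, 6069 and 3235 in S80A cells. The WT libraries were close together and lay inside the S80A range. The difference was 0.67 log2 before LPS (95% interval -3.52 to 4.87, limma adjusted p = 0.785) and -0.33 after it (-1.19 to 0.54, adjusted p = 0.486). Without S80A replicate 1 at 0 hr the first was 2.55 (adjusted p = 0.0215, the lowest of 14 alternatives, which reached 0.994). The authors' deposited tables give CCL2 log2 fold changes of 5.48 in WT and 3.97 in S80A cells.

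CCL20, the ligand of CCR6 that draws dendritic cells and Th17 cells, showed the largest genotype difference among the ligands at both times. It lies on chromosome 2 from 227805739 to 227817564, away from the cluster on chromosome 17. The promoter with the kB match printed above precedes a RefSeq start inside these GENCODE bounds. Bases before the GENCODE start were not searched. At 0 hr CCL20 stood at 10.4, 2.41 and 6.45 scaled reads in WT and 21.9, 143 and 479 in S80A cells. At 3 hr it stood at 5685, 3168 and 2781 in WT and 33148, 44591 and 50683 in S80A cells. The groups did not overlap at either time, and S80A replicate 1 was the S80A library nearest to WT at both. After LPS the difference was 3.52 ± 0.33 log2 (SE, 95% interval 2.73 to 4.30, limma adjusted p = 0.000909), with an S80A mean 11.04 times the WT mean. It passed under all 14 alternatives (adjusted p 5.36e-18 to 0.00732), with differences of 3.25 to 3.83 log2 in them. Before LPS the difference was 4.14 ± 1.19 log2 (95% interval 1.15 to 7.13) with an S80A mean 33.4 times the WT mean, and the adjusted p of 0.0503 missed the threshold. Without S80A replicate 1 at 0 hr it was 5.31 (adjusted p = 0.0105), and without S80A replicate 3, the library with the highest value, it was 3.12 (adjusted p = 0.0894). Over the 14 alternatives the adjusted p ran from 0.000318 to 0.143. By mean scaled reads CCL20 ranked 271 among the 3281 listed genes in WT cells at 3 hr and 12 in S80A cells.

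CCL22, the ligand of CCR4 made by macrophages and dendritic cells, was the least induced of the ligands in WT cells and was below WT in S80A cells before LPS. It lies on the plus strand of chromosome 16 from 57358772 to 57366190. At 0 hr it stood at 76.2, 68.4 and 73.4 scaled reads in WT and 38.8, 39.6 and 43.0 in S80A cells, 2 tight groups with no overlap. The difference was -0.83 ± 0.11 log2 (SE, 95% interval -1.10 to -0.56, limma adjusted p = 0.00644, range 0.00210 to 0.0991 over 14 alternatives), and the fit of all 12 libraries ended the call (adjusted p = 0.0991). At 3 hr it stood at 366, 121 and 142 in WT and 289, 468 and 470.0 in S80A cells. WT replicate 1 lay inside the S80A range and the other WT libraries below it. The difference was 1.10 ± 0.45 log2 (95% interval 0.03 to 2.18, adjusted p = 0.0848, range 0.0122 to 0.240). Without WT replicate 1 it was 1.59 and passed (adjusted p = 0.0122), and it passed in the fit of all 12 libraries (adjusted p = 0.0246).

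Counted by ranges alone, S80A libraries lay wholly above WT libraries for 3 ligands at 0 hr (CCL3, CCL3L3 and CCL20), beside 31.6% of all listed genes. They lay wholly below for 2 (CCL5 and CCL22), beside 17.5%. At 3 hr 2 lay above (CCL3 and CCL20), beside 35.7%, and 2 below (CCL7 and CCL8), beside 23.3%. Of the ligands counted, CCL7 was listed for WT cells alone, which favours a place below. No reading of the family is drawn from these counts.

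Whether the LPS response itself differed was asked with the limma interaction term on all 12 libraries, S80A response minus WT response, over the 1562 genes in both tables. Among the 9 ligands listed for both genotypes 0 passed, beside 4.48% of those genes (2.69% higher and 1.79% lower). At an unadjusted limma p under 0.05 there were 2, CCL22 and CCL3L3, beside 308 of the 1562 genes, which is near the same share. By adjusted p edgeR called 0 of the 9, beside 34 higher and 29 lower among the 1562 genes. DESeq2 called 1 of the 9, CCL22, beside 71 higher and 64 lower. CCL22 came nearest, with a response 1.93 ± 0.51 log2 larger in S80A cells (95% interval 0.81 to 3.05, adjusted p = 0.0590, range 0.00305 to 0.145 over 20 alternatives). Over all 3281 listed genes its adjusted p was 0.0306. The authors' deposited tables give CCL22 log2 fold changes of 1.47 in WT and 3.20 in S80A cells. CCL7, listed for WT cells alone, was tested over all 3281 genes, where 14.1% passed (7.19% higher and 6.95% lower), and a gene listed for 1 genotype was selected for a difference. The interaction of -3.14 ± 0.93 log2 (adjusted p = 0.0465, range 0.00177 to 0.0931 over 19 alternatives) is therefore a description and supports no difference by itself. With 0 WT reads at 0 hr its size depends on the method, from -1.57 with pseudocount 5 to -6.06 in DESeq2 and -6.38 in edgeR.

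The remaining interactions did not pass. The CCL3L3 response differed by -1.38 log2 (95% interval -2.74 to -0.03, adjusted p = 0.244) and that of CCL3 by -1.15 (-2.33 to 0.03, adjusted p = 0.270). For CCL20 the response differed by -0.62 log2 (-3.29 to 2.04, adjusted p = 0.876), and its level lay higher in S80A cells at both times. CCL8 gave -1.34 (-3.26 to 0.59, adjusted p = 0.482), and CCL2, CCL4, CCL4L1 and CCL5 had adjusted p-values of 0.819 to 0.938. Without S80A replicate 1 at both times CCL3L3 (-1.75, adjusted p = 0.00248), CCL2 (-2.55, adjusted p = 0.0266) and CCL22 (2.14, adjusted p = 0.0390) passed. Over 20 alternatives the adjusted p ran from 0.00248 to 0.460 for CCL3L3 and from 0.0223 to 0.966 for CCL2. Without S80A replicate 1 at 0 hr alone CCL3 passed as well (-1.60, adjusted p = 0.0447, range 0.0447 to 0.470).

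Levels of different ligands were compared per kilobase of the longest coding transcript, which was known for 9 ligands and not for CCL4L1. In WT cells at 3 hr CCL3 (37359 ± 1954 scaled reads per kb, SD, n = 3), CCL3L3 (36689.9 ± 1859) and CCL4 (34571 ± 3699) stood together at the top. CCL5 followed at 15102 ± 1325, and then CCL2 (6002 ± 230.2), CCL8 (5463 ± 1277) and CCL20 (4622 ± 1879), whose library values overlapped. CCL22 (71.7 ± 46.4) and CCL7 (13.9 ± 0.764) were far below. In S80A cells at 3 hr CCL20 (51022 ± 10611 per kb) stood beside CCL3 (51258 ± 7305), CCL4 (40829.8 ± 4147) and CCL3L3 (39405 ± 10856), with overlapping libraries. CCL5 (9665 ± 4953) and CCL2 (5200.4 ± 2672) came next with overlapping libraries, CCL8 (1783 ± 1058) lay below both without overlap, and CCL22 (139.7 ± 35.4) and CCL7 (4.80 ± 3.02) were again lowest. Before LPS CCL5 led in WT cells (415 ± 74.8 per kb) and CCL3 in S80A cells (414 ± 184), where CCL20 was at 256 ± 282 and CCL5 at 195 ± 37.9.

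**Figure D4:**
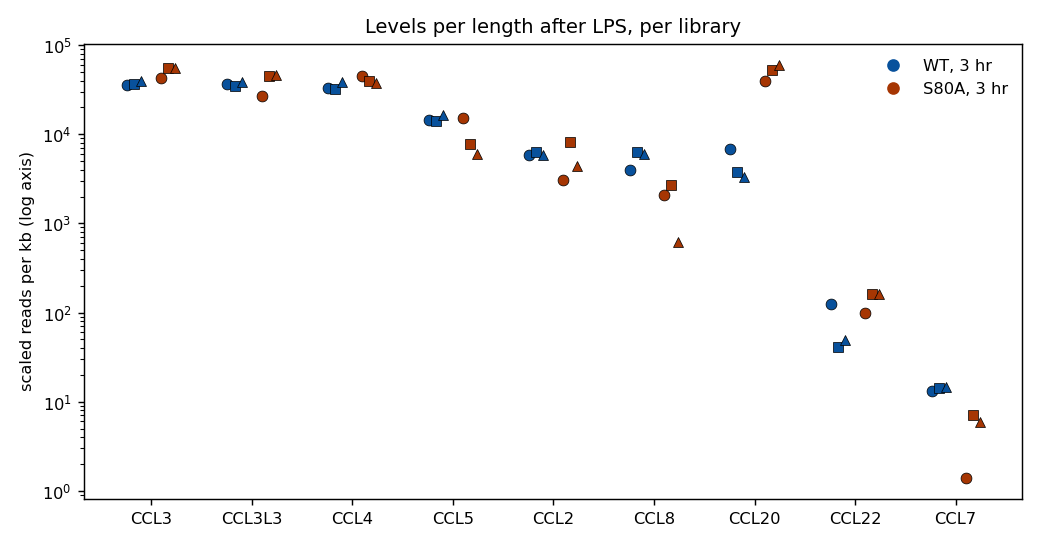
Scaled reads per kilobase of 9 CC ligands at 3 hr, on a log axis, in WT (blue) and S80A (red) libraries. Each point is 1 library, and circles, squares and triangles are replicates 1 to 3. CCL20 is among the lower ligands in WT cells (mean 4622 per kb) and beside CCL3 in S80A cells (mean 51022 per kb).

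Receptors and other chemokines give the setting of these ligands. Of 18 other CC ligand genes 2 were listed, and CCL19, a ligand of CCR7, was lower in S80A cells after LPS (67.2 ± 12.4 scaled reads in WT and 7.57 ± 8.03 in S80A cells, SD, n = 3, limma adjusted p = 0.00499). The other, CCL28, did not pass after LPS (24.2 ± 3.49 and 18.1 ± 2.51, adjusted p = 0.160). Of 14 CC receptors 4 were listed (CCR1, CCR4, CCR7 and CCRL2), and 2 were lower after LPS and 0 higher (all listed genes: 17.7% lower and 29.2% higher), with a median of -1.32 log2. CCR7, which guides dendritic and T cells to lymph nodes, was at 546 ± 152 in WT and 29.8 ± 9.43 in S80A cells (-4.16 log2, adjusted p = 0.000756). CCR1, a receptor of CCL3 and CCL5, was at 1983 ± 708 and 624 ± 236 (-1.67 log2, adjusted p = 0.0160). It was listed through its fall in S80A cells alone (1484 to 624 scaled reads, against 2204 to 1983 in WT cells). That favours a lower S80A level after LPS, so the p of CCR1 is no independent support for a difference. CCR4, the receptor of CCL22, was at 20.8 ± 9.85 and 11.2 ± 8.30 and did not pass (adjusted p = 0.166).

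Of 19 chemokines of the CXC, C and CX3C families 11 were listed, all as rises in the authors' WT table and 9 in the S80A table. A listing for WT cells alone favours a lower S80A level after LPS. After LPS 5 were higher and 2 lower in S80A cells, beside 29.2% and 17.7% of all listed genes, with a median of 0.89 log2. CXCL3 (1211 ± 215 scaled reads in WT and 4153 ± 665 in S80A cells), CXCL2 (1882 ± 217 and 4949 ± 681) and IL8 (27726 ± 9781 and 96621 ± 14497), all ligands of CXCR2 that attract neutrophils, were higher in S80A cells. Their limma adjusted p-values were 0.00185, 0.00264 and 0.00315. Of 30 genes that lead from TLR4 to NF-κB 17 were listed, and 3 were higher and 1 lower after LPS (median 0.26 log2), smaller shares than the 29.2% and 17.7% of all listed genes. The 3 higher were the kinase gene IRAK2 (1.12 log2, adjusted p = 0.00352), the adaptor gene TAB2 (1.00, adjusted p = 0.00656) and TNFAIP3, which encodes the NF-κB inhibitor A20 (1.07, adjusted p = 0.00737). Of 17 genes of the type I interferon axis 12 were listed, all as rises in the authors' S80A table and 9 in the WT table. After LPS 2 were higher (JAK1, 1.36 log2, adjusted p = 0.00455, and IFNAR2, 1.04, adjusted p = 0.0103). Another 2 were lower, among them the signalling inhibitor SOCS1 (-0.93, adjusted p = 0.0243). The median of that list was -0.33 log2, against 0.19 for all listed genes, of which 29.2% were higher and 17.7% lower. In WT cells JAK1 (1181 to 1913 scaled reads) and IFNAR2 (1422 to 1879) stayed under the authors' log2 limit of 1. Both were thus listed for S80A cells alone, which favours a higher S80A level after LPS. Their p-values are no independent support for a difference.

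For each ligand the gene with the most similar profile over the 12 libraries was found by the root mean square (RMS) difference of log2(scaled reads + 1), each gene centred on its own mean, among genes with a mean of at least 10 scaled reads. CCL20 was nearest to IL1B, the gene of interleukin 1 beta (RMS 0.91 log2). IL1B stood at 90.9, 12.1 and 33.1 scaled reads in WT and 152, 1802 and 4669 in S80A cells at 0 hr, the same order of libraries within each group as CCL20. At 3 hr IL1B stood at 105883, 52257 and 51941 in WT and 212176, 157342 and 153267 in S80A cells, all S80A libraries above all WT libraries, but within the S80A group the order of replicates was the reverse of that of CCL20. CCL8 was nearest to CXCL9, an interferon-inducible ligand of CXCR3 (RMS 0.67 log2). CXCL9 stood at 3467, 9324 and 8191 in WT and 1572, 6444 and 631 in S80A cells at 3 hr, with replicate 1 lowest in WT and replicate 3 lowest in S80A cells, as for CCL8.

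The other nearest genes were TRAF1, an adaptor of TNF receptors, for CCL3 (RMS 0.50 log2) and for CCL3L3 (0.59), and TNIP3 for CCL4 (0.54). IRG1, which encodes the enzyme that makes itaconate, was nearest to CCL4L1 (0.94), and RNF144B to CCL5 (0.40). TNFRSF9, a TNF receptor family gene, was nearest to CCL2 (1.06), ISLR to CCL7 (0.65) and E2F7 to CCL22 (0.44). Among the ligands themselves the closest pairs were CCL3 with CCL3L3 (0.66) and CCL4 with CCL4L1 (0.71). All profiles share the 12 libraries and their size factors, and the likeness is a description with no test.

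**Figure D5:**
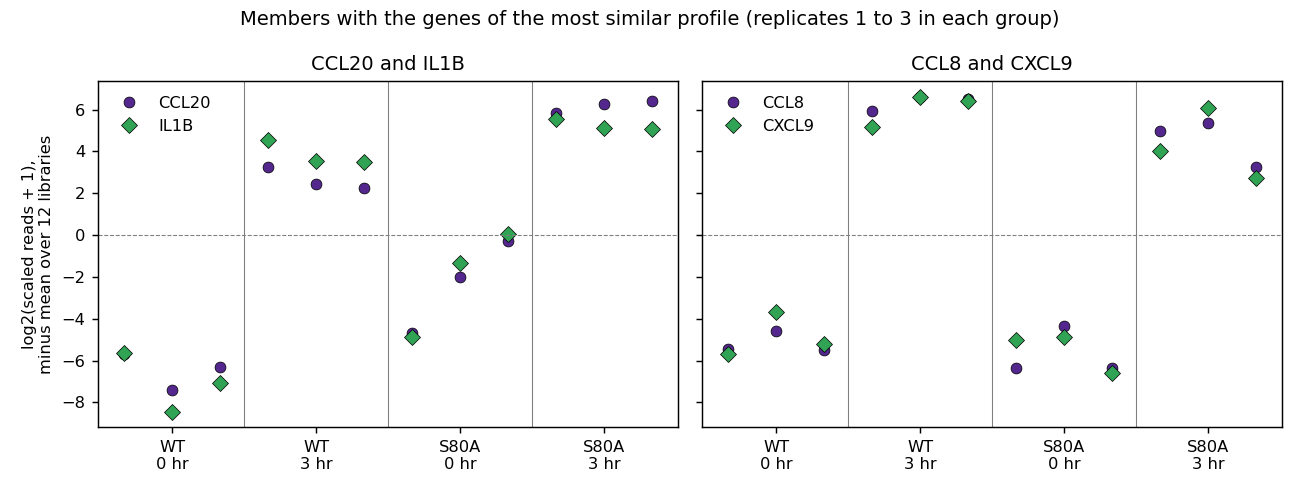
CCL20 with IL1B (left) and CCL8 with CXCL9 (right) in the 12 libraries, as log2(scaled reads + 1) minus each gene's mean over the libraries. Points within a group are replicates 1 to 3 from left to right. CCL20 and IL1B both lie higher in S80A than in WT libraries at 3 hr, and in S80A cells at 3 hr CCL8 and CXCL9 are both lowest in replicate 3.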

How the data were processed

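Poly(A) RNA libraries were read as single-end 75 base reads, per the labels' protocols, and GRCh38, DESeq2, HTSeq, HISAT, StringTie, Cuffdiff and FastQC are named, without versions, per the submitters' processing notes. The signal values deposited by the authors are counts of reads over a size factor of each library (0.834 to 1.29), since 100.0% of values were whole multiples of the value of 1 read within 0.01 reads. The authors' log2 fold changes and adjusted p-values are deposited for genes with adjusted p-value under 0.01 and absolute log2 fold change over 1, so all other genes were not analysed here. All per-sample columns matched a library.

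The ligands, gene lists, tests and alternatives were chosen with earlier results of these data known. Tests used limma 3.58.1 in R 4.3.3 on log2(scaled reads + 1), which understates changes of genes with few reads. Alternatives were pseudocounts 0.5 and 5, a mean of at least 10, TMM scaling, edgeR 4.0.16 and DESeq2 1.42.0 on the recovered whole reads, a replicate block, 1 fit of all 12 libraries and leaving out each library. A fit without S80A replicate 1 at both times was added after seeing the data. Positions come from GENCODE release 29, in which CCL3L3 was matched by its Ensembl identifier. Genes named beyond the ligands were NFKB1, up to 3 genes per list with the smallest p after LPS, and the nearest profile of each ligand. Figures were drawn with matplotlib 3.10.9 in Python 3.11.15.

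Counts were simulated with 200 genes changed in each comparison. On these limma found 18% of changes of 1 log2 and 82% of those of 2 log2 after LPS (4 false among 104 calls over 3281 genes). It found 10% and 68% before LPS (3 false of 81), where edgeR found 37% and 89% (8 false of 134), and 11% and 72% in the interaction over 1562 genes (7 false of 90). In the data 1541 genes passed after LPS, 1007 before LPS and 70 in the interaction. The share of changed genes thus differs from the simulation, and its rates need not hold for these data.

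Whether same-numbered replicates were paired was checked by the correlation of their deviations from the group means. It was 0.188 to 0.259 between WT and S80A cells at 0 hr, with all 3 pairs over 0.1, and 0.064 to 0.196 at 3 hr, where 2 of 3 pairs were. The same number was the best match for all 3 WT libraries at 0 hr and for 2 of 3 at 3 hr. No label states a pairing and the cut of 0.1 has no reference, so pairing is not settled at either time. The main tests ignore the numbers, and the replicate block is the alternative that uses them. Between the 2 times all 3 pairs were over 0.1 within WT cells (0.153 to 0.343) and within S80A cells (0.196 to 0.299).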

Additional observations from a re-analysis of the deposited data

Results flagged for a closer look

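The LPS response of CCL7 passed a test of the difference between genotypes, as did that of CCL22 when adjusted over the same 3281 genes (adjusted p = 0.0306) but not over the 1562 genes listed for both genotypes (adjusted p = 0.0590). For CCL7 the response in S80A cells minus that in WT cells was -3.14 log2 (SE 0.93, limma interaction over all 3281 listed genes, adjusted p = 0.0465, range 0.00177 to 0.0931 over 19 alternatives). All 3 WT libraries went from 0 reads to between 10.6 and 11.8 scaled reads, while S80A libraries lay between 0 and 8.40 at 0 hr and between 1.12 and 5.75 at 3 hr. The gene was listed for WT cells alone, so it was selected for a difference and the p is no independent support for one, and 31 reads in WT and 10 in S80A cells at 3 hr are the whole of its signal after LPS. The size ran from -1.57 with pseudocount 5 and -3.86 with pseudocount 0.5 to -6.06 in DESeq2 and -6.38 in edgeR, since WT cells had 0 reads at 0 hr. The call was lost under 12 of the 19 alternatives, 11 of them the omission of 1 library.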

How the results depend on the processing

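Over the single ligands 406 values kept their sign and side of the threshold, 33 came to pass, 24 no longer passed and 22 turned sign, all 22 among values that did not pass. After LPS the 3 calls gave 3 or 2 under every change of method, but not always of the same ligands. DESeq2 called CCL5, and the fit of all 12 libraries called CCL22, in place of CCL7. Leaving out 1 library gave 1 to 5 ligands and 1055 to 1788 genes against 1541. CCL20 was called in all of these fits. Before LPS the 2 calls became 4 with a mean of at least 10, 5 in edgeR, 5 in DESeq2 and 4 in the fit of all 12 libraries, and leaving out 1 library gave 1 to 7 ligands (7 without S80A replicate 1, 1 without WT replicate 2 or 3) and 497 to 1200 genes against 1007. For the LPS response the 1 call became 0 with pseudocount 0.5, 2 with pseudocount 5, 0 with a mean of at least 10, 2 in DESeq2, 2 over all listed genes and 4 without S80A replicate 1 at both times, with 0 to 4 on leaving out 1 library. Over all genes the 70 calls became 135 in DESeq2, 187 without S80A replicate 1 at both times (80 higher, 107 lower) and 464 over all listed genes, with 36 to 123 on leaving out 1 library. The cause of these changes was not tested. CCL7 could not be fitted with a mean of at least 10.

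With the replicate block 3 ligands passed after LPS (1493 genes), 3 before it (1009 genes, CCL3 added) and 1 for the response. That ligand was CCL7, adjusted over all listed genes (315 higher and 305 lower with the block, 236 and 228 without it), while the genes listed for both genotypes gave 104 calls against 70. The block changed no other call of a ligand.

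Signs turned for CCL3L3 after LPS (TMM -0.145, DESeq2 -0.106, leaving out 1 library -0.074 to 0.317) and CCL4L1 after LPS on leaving out 1 library (-0.068 to 0.10). Before LPS they turned for CCL2 on leaving out 1 library (-0.61 to 2.55) and for CCL4L1 (TMM -0.025, DESeq2 -0.076, leaving out 1 library -0.26 to 0.74). For the response they turned on leaving out 1 library for CCL2 (-2.88 to 0.28), CCL4 (-0.75 to 0.018), CCL4L1 (-0.75 to 0.26), CCL5 (-0.060 to 0.62) and CCL20 (-1.80 to 0.39). They also turned for CCL5 without S80A replicate 1 at both times (-0.20) and for CCL20 with pseudocount 5 (0.0035).

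With 3 libraries per group, most differences near 1 log2 in the simulated data were missed, a rate that need not hold for these data. CCL7 and CCL8 at 0 hr rest on 0 to 11 reads per group.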
